A study of Mus musculus with 6 samples.

Results

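Collagens IV and VI were followed as 9 genes, the 6 chains Col4a1 to Col4a6 and the 3 chains Col6a1, Col6a2 and Col6a3, chosen by name out of the 22483 genes measured. They were measured in stromal cells of mouse skeletal muscle, by 3′ tag RNA sequencing of 6 libraries. The injured libraries came from muscle of Swiss white mice, 8 to 12 weeks old, that had received 20 uM cardiotoxin, a venom protein that destroys muscle fibres, and was taken on day 3, and the control libraries came from the untreated contralateral leg of mice of the same strain. Cells negative for CD45, CD31 and CD11b were sorted on CD140a (the product of Pdgfra) and Sca1 (the product of Ly6a) into CD140a(-)/Sca1(+), CD140a(+)/Sca1(-) and CD140a(+)/Sca1(+) cells, with 1 injured and 1 control library of each. The labels name the tibialis anterior as the muscle, whereas the study's text gives other hindlimb muscles for the acute injury. The number of mice behind a library was not given in the sources used here. Each subpopulation thus had no replicate of its own, and the tests below use the 3 subpopulations as replicates of the injury.

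Collagen IV forms the sheet-like network of basement membranes, the thin matrix around muscle fibres, capillaries and nerves. Its α1 and α2 chains assemble together and are found in nearly all basement membranes, while the α3, α4, α5 and α6 chains form networks of more restricted tissues, such as the kidney glomerulus. Collagen VI is a beaded microfilament of the interstitial matrix next to the basement membrane, built from the α1, α2 and α3 chains. Muscle fibroblasts are its main source in muscle, and mutations of COL6A1, COL6A2 or COL6A3 cause congenital muscular dystrophy in humans.

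The genes of collagen IV lie in head-to-head pairs. The start sites of Col4a1 (chr8:11198423-11312826, minus strand) and Col4a2 (chr8:11312805-11449287, plus strand) were 21 bases apart in GRCm38, those of Col4a3 and Col4a4 on chromosome 1 were 72 bases apart, and those of Col4a5 and Col4a6 on chromosome X were 1309 bases apart. Col6a1 (chr10:76708792-76726168) and Col6a2 (chr10:76595762-76623630) lie on the minus strand of chromosome 10 with starts 102538 bases apart, and Col6a3 (chr1:90765923-90843971) lies alone on the minus strand of chromosome 1. RefSeq start regions (GRCm38.p6) were at hand for 8 of the 9 chains. Those printed here are the stretch that holds both starts of the Col4a1 and Col4a2 pair, because this pair shares a start region yet differs widely in counts, and bases before the starts of the collagen VI chains, without those inside an exon of GENCODE or a gene of RefSeq, because Col6a1 and Col6a2 moved together. Each runs 5′ to 3′, on the plus strand for the first and on the minus strand for the others. Capitals mark the GC box, GGGCGG or its complement CCGCCC.
Col4a1 and Col4a2 starts, chr8:11312801-11312830: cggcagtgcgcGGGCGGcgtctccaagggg
Col6a1, chr10:76726169-76726294: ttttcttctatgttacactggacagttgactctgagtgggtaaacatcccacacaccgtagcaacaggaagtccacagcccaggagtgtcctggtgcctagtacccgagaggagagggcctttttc
Col6a2, chr10:76623631-76623880: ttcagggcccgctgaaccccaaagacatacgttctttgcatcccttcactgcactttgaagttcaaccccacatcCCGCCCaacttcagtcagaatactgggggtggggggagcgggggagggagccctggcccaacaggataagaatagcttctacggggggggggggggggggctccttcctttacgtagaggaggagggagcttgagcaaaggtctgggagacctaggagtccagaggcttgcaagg
Col6a3, chr1:90844002-90844221: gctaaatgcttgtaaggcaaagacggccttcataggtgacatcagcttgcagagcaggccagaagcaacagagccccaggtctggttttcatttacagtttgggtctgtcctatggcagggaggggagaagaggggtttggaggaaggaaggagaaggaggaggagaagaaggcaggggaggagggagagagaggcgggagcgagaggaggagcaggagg

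In the 300-base start regions (250 bases before the start and 50 after), searched on both strands, the GC box GGGCGG occurred 3 times for Col4a2, once for Col4a1, and not at all for Col6a1 or Col6a3. It occurred in 35.7% of 32851 start regions of the mouse table. The regions of Col4a1 and Col4a2 overlap in part, and the GC box printed above lies in both, so the box of Col4a1 is also among those of Col4a2. The 2 start regions listed for Col6a2 overlap in part and held 1 and 3 GC boxes. CCAAT occurred in the regions of Col4a1, Col4a2 and Col4a5 (37.4% of all regions), TGANTCA, the AP-1 motif, only in that of Col6a1 among the chains (7.81% of all regions), and TATAAA in none of the chains (13.6% of all regions). These are matches of letters and were not tested for binding.

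Before the values, the state of the libraries has to be given. The deposited values were converted back to normalized counts, which are counts scaled to a common library size, and the conversion gave between 2094353 and 14173590 reads per library. One library, that of CD140a(+)/Sca1(-) cells after injury, was unlike the rest. It listed 69.1% of genes at 0, against 28.2% to 39.0% in the other 5 libraries, and 928 of the 5274 genes with at least 20 normalized counts in all of the other 5 were at 0 in it, so no ratio of counts is given against a 0 in this library. The limma changes do include these zeros, among them those of Col4a2, Col4a3, Col4a4 and Col4a5. The study reported its lowest sorting efficiency for the control CD140a(+)/Sca1(+) cells. The sorting genes did not all follow the labels. Ly6a was low in the libraries labelled Sca1(-), at 2.09 normalized counts in injured and 70.4 in control cells, against 253 to 5850 in those labelled Sca1(+). Pdgfra, however, was at 335 in injured and 211 in control cells labelled CD140a(-). It was at 1240 and 203 in injured and at 26.3 and 33.6 in control cells labelled CD140a(+). In control cells the mRNA thus ran against the label. In injured cells it did so in CD140a(+)/Sca1(-) cells, at 203, but not in CD140a(+)/Sca1(+) cells, at 1240.

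Across the 3 subpopulations, 2 of the 3 collagen VI chains rose after injury, while the major collagen IV chain had a lower count in each injured library without passing the test. A gene was called when limma, with the subpopulation as a block, gave p under 0.05 and at least a 3-fold change on the deposited log2 scale. By this rule Col6a1 and Col6a2 rose and no chain fell, out of 8 chains tested (Col4a6 did not pass the filter on low values). The deposited scale shrinks changes of low counts. In CD140a(+)/Sca1(-) cells the drop of Col4a3 from 7.38 to 0 normalized counts was only -1.54 there, short of 3-fold. Col4a3 and Col4a5, at most 7.38 and 6.82 in control cells, could therefore not be called as fallen. Of all 15532 genes tested, 2.30% rose and 3.46% fell, with 1241 at an unadjusted p under 0.05. The lowest Benjamini-Hochberg adjusted p of any gene was 0.192 in limma, so no call, for the chains or any other gene, held after adjustment in this fit. Over the alternatives the adjusted p of Col6a1 ranged between 0.0018 (variance trend) and 0.836, and was 0.0318 without the CD140a(+)/Sca1(-) pair, and that of Col6a2 ranged between 0.106 and 0.836. The median change of all tested genes was -0.33, and of all calls 39.9% were rises. Rises made up 21.1% of calls with scaling to the 75th percentile, where the median change was -0.70, and 21.1% and 25.8% with log2 of the normalized count plus 0.5 or 1. The replicates are different subpopulations, so the limma p-values set the mean change against the variation of the injury response between them. The variance of each gene was drawn toward that of all tested genes.

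**Figure D1:**
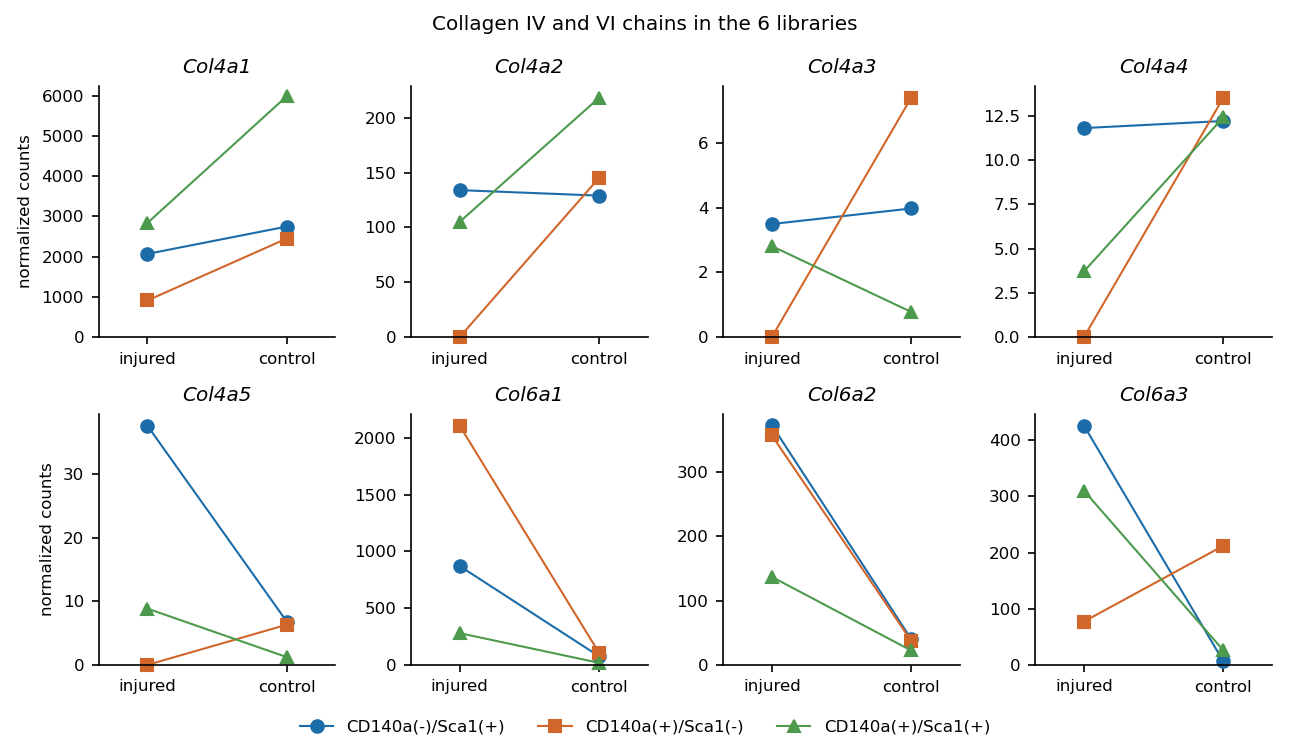
Normalized counts (vertical axis, each panel with its own scale from 0) of 8 chains in the 6 libraries, injured on the left and control on the right of each panel, with a line joining the libraries of 1 subpopulation. Col6a1 and Col6a2 were higher in all injured libraries, at 137 or more against 109 or less, Col4a1 was lower in each injured library than in its control, and Col6a3 crossed.

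Col6a1, which encodes the α1 chain of collagen VI, had 872, 2109 and 280.3 normalized counts in injured CD140a(-)/Sca1(+), CD140a(+)/Sca1(-) and CD140a(+)/Sca1(+) cells, against 76.9, 109 and 18.5 in the control cells in the same order. Every injured library lay above every control library. The change was 3.60 on the log2 scale (SE 0.50, 95% interval 2.38 to 4.81, limma adjusted p = 0.256), higher in 3 of 3 subpopulations. As ratios of counts, the rise was 11.3-fold in CD140a(-)/Sca1(+) cells (95% counting interval 10.3 to 12.6), 19.4-fold in CD140a(+)/Sca1(-) cells (16.6 to 22.9) and 15.1-fold in CD140a(+)/Sca1(+) cells (9.79 to 24.6). These intervals cover counting error only and rest on reads estimated from the deposited values.

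Col6a2, which encodes the α2 chain, had 373, 357 and 137 normalized counts in injured CD140a(-)/Sca1(+), CD140a(+)/Sca1(-) and CD140a(+)/Sca1(+) cells, against 40.6, 37.7 and 22.5 in control cells. Again no injured library overlapped with a control library. The change was 2.65 (SE 0.49, 95% interval 1.45 to 3.86, limma adjusted p = 0.339), with count ratios of 9.19, 9.47 and 6.07. Non-overlap with the injured libraries higher was seen in 4.18% of all tested genes, and in 2 of the 8 chains tested.

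Col6a3, which encodes the large α3 chain, behaved differently in the 3 subpopulations. It had 426, 77.1 and 310.1 normalized counts in injured CD140a(-)/Sca1(+), CD140a(+)/Sca1(-) and CD140a(+)/Sca1(+) cells, against 6.66, 212 and 26.1 in control cells. The injured level was 64.0-fold that of control in CD140a(-)/Sca1(+) cells (95% counting interval 45.5 to 90.4) and 11.9-fold in CD140a(+)/Sca1(+) cells (8.11 to 17.5), whereas in CD140a(+)/Sca1(-) cells it was 2.75-fold lower than control (2.13 to 3.54). This difference between subpopulations was not tested, since each had 1 library per state. Over all 3 the change was 2.18 (SE 1.14, 95% interval -0.61 to 4.96, limma adjusted p = 0.655) and was not called. Without the CD140a(+)/Sca1(-) pair, which holds the library with many genes at 0, it was 3.93 (limma adjusted p = 0.0197) and was called. Control CD140a(+)/Sca1(-) cells, where Col6a3 was highest among controls, also held most Schwann cell marker counts. Their summed normalized count was 1592 in these cells, against 23.2 and 274 in the other control libraries and 0.906 to 13.2 in the injured ones. Of 6 such markers 4 fell after injury, against 3.46% of all tested genes. The part of Schwann cells in the Col6a3 value was not tested.

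The genes Col6a4, Col6a5 and Col6a6 encode chains that resemble α3. Col6a4 had 1.77 normalized counts in control CD140a(+)/Sca1(+) cells and 0 in the other 5 libraries. Col6a5 had at most 3.05 in injured and 5.92 in control cells, with a change of -0.73 (SE 0.49), and Col6a6 had at most 8.34 in injured and 3.10 in control cells, with a change of 0.60 (SE 0.49). Neither was called.

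Col4a1, which encodes the α1 chain of collagen IV, was the most abundant of the 9 chains in 5 of the 6 libraries. It had 2068, 912 and 2836 normalized counts in injured CD140a(-)/Sca1(+), CD140a(+)/Sca1(-) and CD140a(+)/Sca1(+) cells, against 2747, 2449 and 5984 in control cells. By rank it stood at 140, 419 and 96 of all genes in the injured libraries and at 102, 106 and 36 in the control libraries. Each injured library was below its control, by 1.33-fold, 2.69-fold and 2.11-fold, but the ranges of the groups overlapped. The change of -0.97 (SE 0.50, 95% interval -2.19 to 0.26, limma adjusted p = 0.655) was not called.

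Col4a2, its partner chain, had 134, 0 and 105 normalized counts in injured CD140a(-)/Sca1(+), CD140a(+)/Sca1(-) and CD140a(+)/Sca1(+) cells, against 129, 145 and 218 in control cells. The 0 stood in the library with many genes at 0. In CD140a(-)/Sca1(+) cells the count ratio was 1.04 (95% counting interval 0.939 to 1.15), within counting error, and in CD140a(+)/Sca1(+) cells the injured level was 2.08-fold lower (1.72 to 2.52). The change of -1.88 (SE 0.95, limma adjusted p = 0.653) was not called, and without the CD140a(+)/Sca1(-) pair it was -0.47 (limma adjusted p = 0.923).

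The minor collagen IV chains had low counts, at most 37.6 in any library, and 3 reads corresponded to between 0.439 and 2.94 normalized counts. Col4a3 had 3.49, 0 and 2.81 normalized counts in injured and 3.97, 7.38 and 0.780 in control CD140a(-)/Sca1(+), CD140a(+)/Sca1(-) and CD140a(+)/Sca1(+) cells (change -0.38, SE 0.58, limma adjusted p = 0.819). Col4a4 had 11.8, 0 and 3.71 in injured and 12.2, 13.5 and 12.4 in control cells (change -0.95, SE 0.58, limma adjusted p = 0.682). Its injured libraries were all below its control libraries, as in 11.2% of all tested genes. In CD140a(-)/Sca1(+) cells the count ratio was 0.972 (95% counting interval 0.693 to 1.37), within counting error. The 0 stood in the library with many genes at 0. Col4a5 had 37.6, 0 and 8.85 in injured and 6.82, 6.32 and 1.23 in control cells (change 0.38, SE 0.71, limma adjusted p = 0.86). In CD140a(-)/Sca1(+) cells, the most deeply sequenced pair, this was a 5.52-fold higher count after injury (95% counting interval 3.92 to 8.13). Col4a6 was listed at 0 in 5 libraries and at 0.562 in control CD140a(-)/Sca1(+) cells. Exons of Col4a3 share 563 bases with an antisense transcript, C430014B12Rik, exons of Col4a2 share 43 bases with the antisense Gm15419, and the first exons of Col4a1 and Col4a2 share 22 bases. The strand used for counting was not given in the sources used here, so reads of the antisense transcripts cannot be told apart from those of Col4a3 and Col4a2 where their exons overlap.

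**Figure D2:**
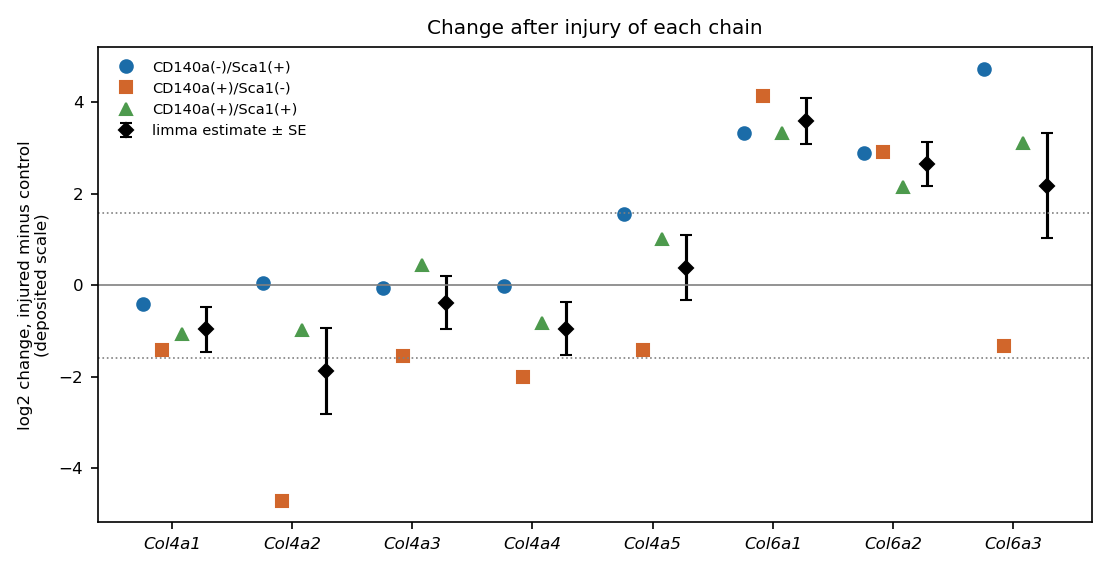
Log2 change, injured minus control, on the deposited scale (vertical axis) for 8 chains, with 1 coloured point per subpopulation and a black diamond for the limma estimate with its SE. The dotted lines mark a 3-fold change, and all 3 points of Col6a1 and of Col6a2 lie above the upper one, while the CD140a(+)/Sca1(-) point of Col6a3 lies below 0.

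Markers of endothelial cells, a known source of basement membrane collagen, were lower in the injured libraries, as was Col4a1, though Col4a2 and Col4a4 in CD140a(-)/Sca1(+) cells were at 1.04 and 0.972 times their control and Col4a5 was 5.52-fold higher there. Of 10 endothelial markers 8 fell, with or without the CD140a(+)/Sca1(-) pair. Of all tested genes 3.46% fell, and 412 of 15532 fell without this pair. The median change of these markers was -2.91. Their summed normalized counts were 102, 10.4 and 249 in injured CD140a(-)/Sca1(+), CD140a(+)/Sca1(-) and CD140a(+)/Sca1(+) cells, against 2233, 665 and 3258 in control cells. Cdh5, the junction cadherin of endothelium, had 17.0, 0 and 21.6 in injured and 506, 146 and 547 in control cells, although the gate removed CD31-positive cells. In the injured libraries 2, 9 and 3 of the 10 markers were at 0, and in the control libraries none. Pericyte and smooth muscle markers had summed counts of 253, 786 and 253 in injured and 525, 330.0 and 641 in control cells, with 1 risen and 3 fallen of 9 tested. Of the 786, 478 came from Des, which is also among the myogenic markers. The part of endothelial cells, pericytes and smooth muscle in the collagen IV values was not tested. Fewer cells of a type cannot be told apart from less RNA per cell in these libraries.

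Markers of fibroblasts and fibro-adipogenic progenitors were higher in the injured libraries in sum, as were Col6a1 and Col6a2 but not Col6a3 in CD140a(+)/Sca1(-) cells. Of 9 such markers 5 rose (Pdgfra, a sorting gene, Dpt, Lum, Col1a1 and Col1a2), against 2.30% of all tested genes. None fell, and the median change was 2.40. Without the CD140a(+)/Sca1(-) pair 7 rose, where 456 of 15532 tested genes rose. The summed normalized counts were 46107, 44203 and 37002 in injured against 12885, 7815 and 3717 in control cells. Most of each injured sum came from Col1a1 (12744, 12759.6 and 8114) and Col1a2 (23272, 26346 and 19199). Those not called, Dcn, Pi16, Cd34 and Ly6a, changed by 1.31, 0.71, -0.03 and -0.43. Ly6a was at 1177 in injured and 5850.0 in control CD140a(-)/Sca1(+) cells. Leukocyte markers were at 395, 843 and 241 in injured and 391, 167 and 88.9 in control cells, with Lyz2, a lysozyme of myeloid cells, the 1 of 10 called as risen and none as fallen. In CD140a(+)/Sca1(-) cells, where Col6a1 was highest after injury, the macrophage gene Cd68 was at 114 in injured and 5.04 in control cells and Tyrobp, a signalling adaptor of myeloid cells, at 222 in injured and 0 in control cells. Ptprc, which encodes CD45, was at 2.50, 0 and 0.533 in injured and 20.5, 0 and 0.887 in control CD140a(-)/Sca1(+), CD140a(+)/Sca1(-) and CD140a(+)/Sca1(+) cells. Myogenic markers, with none of 5 tested called, were at 223, 665 and 181 in injured and 96.0, 144 and 245 in control cells. The injured sums came almost wholly from Des (64.6, 478 and 37.6) and Chrna1 (158, 187 and 143). Pax7, Myf5 and Myod1 were at 0 in all injured libraries. In control cells Pax7 was at 1.31, 3.85 and 6.18 and Myod1 at 3.75, 8.35 and 11.5. The part of these cell types in the collagen VI values was not tested.

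The ratios of chains within a type were taken next. Reads of this assay come from the 3′ end, so counts were compared between genes without division by transcript length, and a ratio of 2 genes still depends on how well each 3′ end was captured and counted. Col4a1 had between 15.4 and 27.4 times the counts of Col4a2 in the 5 libraries where both had reads. The factor was 15.4 and 27.0 in injured CD140a(-)/Sca1(+) and CD140a(+)/Sca1(+) cells, against 21.3 and 27.4 in the control cells. The log2 ratio of Col4a2 to Col4a1 changed by 0.46 and 0.02 after injury (mean 0.24 ± 0.31, SD, n = 2 pairs, exact sign-flip permutation p = 0.5, two-sided, the smallest that 2 pairs allow). Col4a4 had 3.40 times the counts of Col4a3 in injured and 3.07 times in control CD140a(-)/Sca1(+) cells, the only pair of libraries in which both chains had at least 3 reads.

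Within collagen VI, the count of Col6a2 relative to Col6a1 was lower in each injured library than in its control. The ratio of Col6a2 to Col6a1 was 0.428, 0.169 and 0.487 in injured CD140a(-)/Sca1(+), CD140a(+)/Sca1(-) and CD140a(+)/Sca1(+) cells, against 0.528, 0.347 and 1.21 in control cells. It was lower after injury in 3 of 3 subpopulations, by a mean of -0.89 ± 0.52 on the log2 scale (SD, n = 3 pairs, exact sign-flip permutation p = 0.25, two-sided, the smallest that 3 pairs allow). The ratio of Col6a3 to Col6a1 had no common direction, with 0.489, 0.0365 and 1.11 in injured and 0.0866, 1.95 and 1.41 in control cells (mean log2 change -1.20 ± 4.18, SD, n = 3 pairs, exact permutation p = 0.75). The ratio of Col6a3 to Col6a2 was 1.14, 0.216 and 2.27 in injured and 0.164, 5.63 and 1.16 in control cells (mean log2 change -0.31 ± 3.91, SD, n = 3 pairs, exact permutation p = 1).

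**Figure D3:**
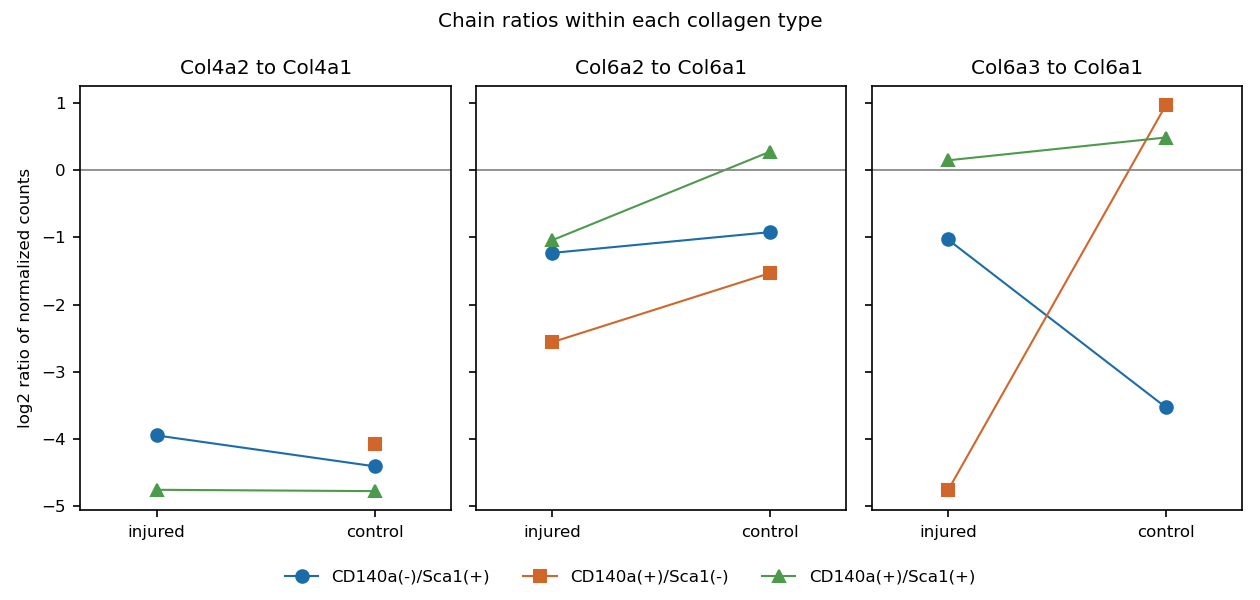
Log2 ratio of the normalized counts of chain pairs (vertical axis, shared by the 3 panels) in injured and control libraries, with a line joining each subpopulation. The Col4a2 to Col4a1 ratio stayed between -4.78 and -3.95 where both had reads, the Col6a2 to Col6a1 ratio was lower in each injured library, and the Col6a3 to Col6a1 lines cross.

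Summed over its chains, collagen VI took 0.0807%, 0.124% and 0.0337% of the normalized counts in injured CD140a(-)/Sca1(+), CD140a(+)/Sca1(-) and CD140a(+)/Sca1(+) cells, against 0.00553%, 0.0172% and 0.00324% in control cells. The groups did not overlap, and the mean log2 change was 3.36 ± 0.51 (SD, n = 3 pairs, exact sign-flip permutation p = 0.25, the smallest that 3 pairs allow). Collagen IV took 0.109%, 0.0444% and 0.137% in injured cells, against 0.129%, 0.126% and 0.300% in control cells, a mean log2 change of -0.96 ± 0.65 (SD, n = 3 pairs, exact permutation p = 0.25). The counts of collagen VI per count of collagen IV were 0.741, 2.79 and 0.246 in injured cells, against 0.0428, 0.137 and 0.0108 in control cells. Injured CD140a(+)/Sca1(-) cells were thus the one library with more collagen VI than collagen IV counts.

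Among the counts of all 44 collagen genes, the 2 types differed in another way. Collagen IV made up 3.04%, 1.49% and 5.75% of collagen counts in injured CD140a(-)/Sca1(+), CD140a(+)/Sca1(-) and CD140a(+)/Sca1(+) cells, against 42.8%, 29.0% and 61.9% in control cells. Collagen VI made up 2.25%, 4.15% and 1.41% in injured and 1.83%, 3.97% and 0.668% in control cells. Col1a2, a chain of the fibrillar collagen I, alone had 23272, 26346 and 19199 normalized counts in injured and 1417, 2620.1 and 1399 in control cells. The share of collagen VI among collagens therefore moved little beside its 3.36 log2 change in the library.

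**Figure D4:**
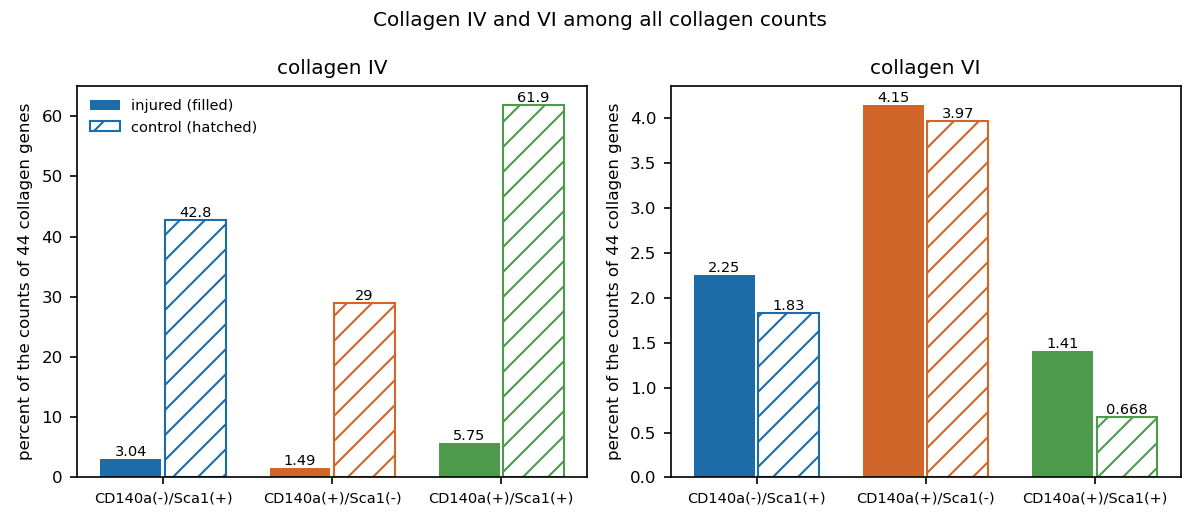
Percent of the normalized counts of 44 collagen genes (vertical axes from 0, with a different scale in each panel) taken by collagen IV and by collagen VI, with filled bars for injured and hatched bars for control libraries of each subpopulation. Collagen IV reached at most 5.75% in injured against 29.0% or more in control libraries, while collagen VI stayed between 0.668% and 4.15%.

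The subpopulations were compared with the state (injured or control) as a block. Col6a1 was higher in CD140a(+)/Sca1(-) cells than in the mean of the other subpopulations, at a mean of 8.98 against 7.33 on the deposited log2 scale (difference 1.65, SE 0.53, limma adjusted p = 0.615), a call made for 0.657% of all tested genes. It was lower in CD140a(+)/Sca1(+) cells, at 6.53 against 8.55 (difference -2.02, SE 0.53, limma adjusted p = 0.986), a call made for 0.470% of all tested genes. No other chain was called in any subpopulation in this fit. The largest difference of a collagen IV chain was that of Col4a2 in CD140a(+)/Sca1(-) cells, at 4.93 against 7.26 (difference -2.33, SE 1.01, limma adjusted p = 0.615), which rests on the library where it was at 0. It was called with a filter on normalized counts (limma adjusted p = 0.575) and with a variance trend (limma adjusted p = 0.597).

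Ordered by level, neighbouring libraries mostly differed by more than counting error. The exceptions were Col4a2 in control CD140a(+)/Sca1(-), injured CD140a(-)/Sca1(+) and control CD140a(-)/Sca1(+) cells (145, 134 and 129 normalized counts), and Col6a2 in injured CD140a(-)/Sca1(+) and CD140a(+)/Sca1(-) cells (373 and 357) and in the control cells of the same subpopulations (40.6 and 37.7). For Col4a1, injured CD140a(+)/Sca1(+) and control CD140a(-)/Sca1(+) cells were 1.03-fold apart (95% counting interval up to 1.07).

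Across the 6 libraries, Col6a1 and Col6a2 had a Pearson r of 0.96 (Spearman rho 0.89), Col4a1 and Col4a2 of 0.86 (rho 0.49), and Col4a1 and Col6a1 of -0.91 (rho -0.83). The points are the 6 libraries, which also share the injury and the zeros of 1 library, so these values are a description. Of 7671 genes whose normalized counts averaged 20 or more, those most like the mean of Col6a1 and Col6a2 were Rnase4 (r = 0.998), Lox (r = 0.997), Lhfp (r = 0.989), Lpgat1 (r = 0.987) and Cnpy4 (r = 0.987). Lox, the enzyme that starts the cross-linking of collagen and elastin, had 1141, 1319.9 and 334 normalized counts in injured and 83.2, 89.9 and 31.8 in control CD140a(-)/Sca1(+), CD140a(+)/Sca1(-) and CD140a(+)/Sca1(+) cells. Among the genes most like the mean of Col4a1 and Col4a2 were Polk (r = 0.998), Nfatc2ip (r = 0.998), Adprm (r = 0.997) and Zfp513 (r = 0.997), these 4 at 0.967 or less in injured CD140a(+)/Sca1(-) cells, as Col4a2 was. Among the genes most like Col6a3 were Clock (r = 0.980), Zeb1 (r = 0.979), Cep170 (r = 0.928) and Teddm1b (r = 0.912).

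Enzymes and chaperones that collagen chains need were also measured. Of 23 such genes 7 rose and none fell, against 2.30% risen and 3.46% fallen of all tested genes. The median change was 1.07 against -0.33 over all tested genes. Without the CD140a(+)/Sca1(-) pair 6 rose, where 456 of 15532 tested genes rose. The 7 were Bmp1, P4ha3, Pxdn, Serpinh1, P3h1, Colgalt1 and Plod3. Bmp1, a protease that trims procollagens, had 327, 514 and 343 normalized counts in injured and 44.8, 31.3 and 13.0 in control CD140a(-)/Sca1(+), CD140a(+)/Sca1(-) and CD140a(+)/Sca1(+) cells (change 3.38, SE 0.53, limma adjusted p = 0.288). Serpinh1, the collagen chaperone of the endoplasmic reticulum, had 607, 608 and 498 in injured and 251, 145 and 64.1 in control cells (change 1.99, SE 0.54). Pxdn encodes peroxidasin, which forms the sulfilimine bonds that cross-link collagen IV. It had 166, 395 and 115 in injured and 75.2, 12.6 and 49.3 in control cells (change 2.08, SE 0.76). P4ha3, a prolyl hydroxylase subunit, had 8.11, 119.6 and 5.78 in injured and 1.22, 0 and 0 in control cells (change 2.26, SE 0.79). The call of Bmp1 held in all 12 other settings. That of Pxdn was lost in 7, among them without the CD140a(+)/Sca1(-) or the CD140a(-)/Sca1(+) pair. That of P4ha3 was lost in 3 (without the CD140a(+)/Sca1(-) pair, with no filter and with unmoderated variances), and that of Serpinh1 in 2 (without the CD140a(+)/Sca1(+) pair and with log2 of the normalized count plus 0.5).

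**Figure D5:**
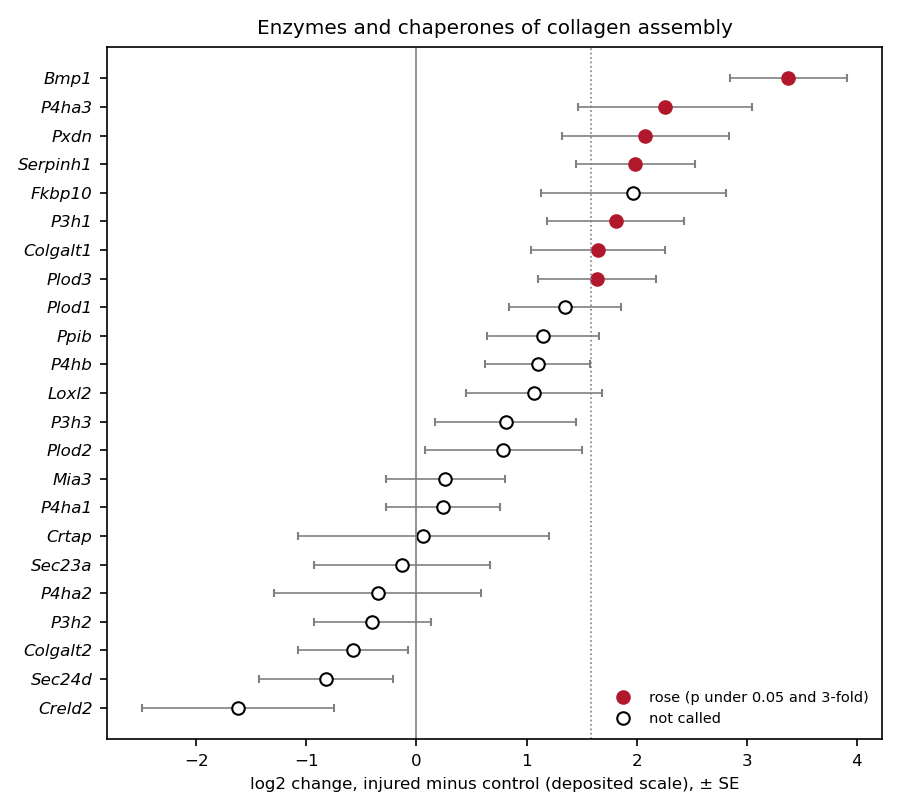
Log2 change, injured minus control, on the deposited scale (horizontal axis) with its SE for 23 enzymes and chaperones of collagen assembly, ordered by size, with the called genes filled. The 7 called genes lie to the right of the dotted line at 3-fold, with Bmp1 at 3.38, and no gene was called as fallen.

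Of 19 tested partners of collagen IV in the basement membrane 1 rose and 1 fell, near the 2.30% and 3.46% of all tested genes, with a median change of -0.03 (2 risen and 1 fallen without the CD140a(+)/Sca1(-) pair). Lamb1, the laminin β1 chain, had 292, 653 and 515 normalized counts in injured and 140.0, 125 and 169 in control CD140a(-)/Sca1(+), CD140a(+)/Sca1(-) and CD140a(+)/Sca1(+) cells (change 1.61, SE 0.52). This call was lost in 7 of 12 other settings, including each of those without a subpopulation. Lama5, the laminin α5 chain, had 0, 0 and 2.12 in injured and 9.75, 9.64 and 20.3 in control cells (change -1.67, SE 0.47). That call was lost in 2 of 12, without the CD140a(-)/Sca1(+) pair and under quantile normalization. Of 12 tested receptors for these collagens 1 rose, with a median change of 0.33. It was Cspg4, the NG2 proteoglycan, which binds collagen VI and is also a pericyte marker, with 162, 208 and 197 in injured and 32.4, 89.9 and 28.2 in control cells (change 1.84, SE 0.52). Its call was lost in 3 of 12 other settings, without each of the Sca1(+) pairs and with log2 of the normalized count plus 0.5.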

How the data were processed

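QuantSeq 3′ libraries of the sorted cells were read on an Ion Proton system. The authors used FastX-Toolkit for trimming, STAR for alignment to the GRCm38 genome and DESeq2 for normalization. A log2 value for each gene and library was deposited, which the values show to be variance-stabilized with a floor of 5.93 on the linear scale. These were inverted to normalized counts, and the value of 1 read in each library was estimated from the lowest values. Only 58.6% to 67.4% of low values came out whole within 0.02 of a read, so no count model was used to test the genes. The counting intervals are nevertheless exact binomial intervals on these read estimates, rounded to whole reads. The injury was tested with limma 3.58.1 in R 4.3.3 on 15532 genes, those with an 80th percentile of 8 or more on the linear scale, with subpopulation as a block, which follows the paired comparison of the study. The prior degrees of freedom were 4.11 and the residual 2. Scripts were tested on simulated data. Ratios and shares were tested with exact sign-flip permutations. Symbols were matched for 22453 of 22483 genes. Genes named are the 9 chains, Col6a4 to Col6a6, up to 4 called genes per list with the largest change, and the 5 most alike per pattern, some of which are not reported here; Cdh5, Col1a2, Lyz2, Cd68, Tyrobp, Ptprc and the sorting genes were named after their values were seen. The members and lists were chosen with earlier results of these data known. Alternatives covered scale, filter, scaling, variance model, block, threshold and leaving out each subpopulation; the list counts without the CD140a(+)/Sca1(-) pair were added after seeing the data.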

Additional observations from a re-analysis of the deposited data

Results flagged for a closer look

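Col6a3 went in opposite directions in the subpopulations. The injured to control ratio of its normalized counts was 64.0 in CD140a(-)/Sca1(+) cells and 11.9 in CD140a(+)/Sca1(+) cells, but 0.363 in CD140a(+)/Sca1(-) cells. With 1 library of each kind, this difference was not tested.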

How the results depend on the processing

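The calls of Col6a1 and Col6a2 after injury held in every alternative run. Of 103 alternatives for the injury changes of single chains, 98 left the direction and the call as they were. The number of genes that rose (357) was 181 with no filter, 114 with unmoderated variances and 144 at p under 0.01, and between 183 (without the CD140a(+)/Sca1(+) pair) and 456 when 1 subpopulation was left out. The number that fell (537) was 866 and 907 with log2 of the normalized count plus 1 or 0.5, 245 with no filter, 1032 with 75th percentile scaling, 180 with unmoderated variances and 183 at p under 0.01, and between 412 and 563 when 1 subpopulation was left out. With the filter set on normalized counts, 362 of 10734 genes rose and 572 fell. These are higher shares than the 2.30% and 3.46% of the 15532 genes used for comparison above. With no replicate block 337 genes rose and 485 fell, and no call of a chain changed. With a variance trend 1 chain fell, Col4a2 (limma adjusted p = 0.419), Col6a3 was called as risen (limma adjusted p = 0.346), and Col6a1 passed adjustment (limma adjusted p = 0.0018). The direction turned for Col4a3 without the CD140a(+)/Sca1(-) pair and for Col4a5 without the CD140a(-)/Sca1(+) pair (ranges when 1 subpopulation was left out, -0.80 to 0.19 and -0.21 to 1.29), for Col4a3 in CD140a(+)/Sca1(-) cells under quantile normalization (0.07), and for Col6a3 in CD140a(+)/Sca1(+) cells with log2 plus 1 (0.10), plus 0.5 (0.11) and 75th percentile scaling (0.18). When 1 subpopulation was left out, the change of the Col6a3 to Col6a1 ratio lay between -3.04 and 1.08 and that of the Col6a3 to Col6a2 ratio between -1.87 and 1.89, with the positive values without the CD140a(+)/Sca1(-) pair. The higher Col6a1 level in CD140a(+)/Sca1(-) cells was no longer called with log2 plus 1 (difference 1.79), plus 0.5 (1.80), 75th percentile scaling (1.70) or the threshold of 0.01. The cause was not tested. In the shallowest library, that of injured CD140a(+)/Sca1(-) cells, 1 read amounted to 0.9814 normalized counts and 3 reads to 2.94. Levels under 2.94 were listed there, as for Ly6a at 2.09, but rested on fewer than 3 reads.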
